A study of Mus musculus with 8 samples.

Results

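Histone lysine methyltransferases, here called writers, and histone lysine demethylases, here called erasers, were examined in total RNA from mouse embryonic stem (mES) cells. The genes were taken by name from the deposited table: those of the Kmt2, Kmt5, numbered Setd, Nsd, Ehmt, Suv39h and numbered Kdm families. The table lists 17597 genes, and of the 35 considered here 34 reached the minimum mean count of 10. These 34 members were 19 writers and 15 erasers. The name rule is blind to function. It took in Setd3, whose best known substrate is actin, and missed enzymes listed under older names.

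The 8 libraries formed 2 groups of 4. One group had 26 hours of dTAG-13, the other none, and neither received doxycycline. Both groups carried METTL3 fused to FKBP12F36V, a degron domain that marks a protein for destruction when dTAG-13 is added, and in both the libraries came from clones C3 and H5, 2 from each. The study describes both clones as female, with an XX karyotype. All cells had the Cast x 129S background and a TetOn promoter in front of the endogenous Xist gene. The labels place this promoter on the 129S allele, and the study's methods place it on the castaneus chromosome for these clones. All were grown on mitomycin-inactivated fibroblast feeders. The deposited table holds 1 mean per gene over all libraries and otherwise only the authors' comparison of both groups, which was not used. It has no column for a single library. The levels below therefore describe treated and untreated cells averaged together, carry no replicate error, and say nothing about the effect of METTL3 loss.

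Writers place 1 to 3 methyl groups on chosen lysines of histone tails, most of them with a catalytic SET domain, and use S-adenosylmethionine as the donor. Erasers remove these groups, either with an amine oxidase domain (Kdm1a and Kdm1b) or with a JmjC domain that needs iron and 2-oxoglutarate. Methylation of H3K4 marks promoters and enhancers, that of H3K36 marks transcribed gene bodies, and that of H3K9, H3K27 and H4K20 is mostly tied to silent or compact chromatin. In mES cells some of these enzymes are known for their part in keeping developmental genes and repeats in check. METTL3 is the enzyme that deposits N6-methyladenosine (m6A) in most messenger RNAs, within short sequence words of which GGACT is among the commonest.

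To show that word in its setting, 8 stretches of coding sequence are printed. They come from the 8 members with the highest level per kb that had the word and 12 bases on each side of it within 1 coding exon. For each gene the word nearest to the stop codon was taken, on the longest annotated coding transcript. Kdm1a, the member with the highest level, had no such stretch. The capitals mark GGACT, read 5′ to 3′ on the transcript.
Kdm5c: tgacctgtgtcaGGACTggttccatgggc
Ehmt2: ccagggacatccGGACTggggaggagctg
Nsd1: cagctatctagaGGACTcactgccaagag
Kdm5b: ctccgaacaggaGGACTctgaggatgaag
Setd6: aaaaacagaccaGGACTtactcagtaata
Kdm3a: gttgaaacttaaGGACTggccgccaggag
Setd3: gggtggtgtgggGGACTcaaggctccctc
Kdm4c: acagggcagtcgGGACTgttcacgcaata

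All 8 lie in exons of the GRCm38 build, and each is a description of letters, with no m6A measured in this table. The Nsd1 stretch (chr13:55313399-55313427, plus strand) lies in exon 23 of 23, and that of Setd6 (chr8:95718652-95718680, plus strand) in exon 7 of 7. The Setd3 stretch (chr12:108107456-108107484, minus strand) is in exon 13 of 13. The Kdm5b stretch (chr1:134630678-134630706, plus strand) is in exon 26 of 27, and that of Ehmt2 (chr17:34912779-34912807, plus strand) in exon 26 of 27. The Kdm5c stretch (chrX:152271179-152271207, plus strand) is in exon 23 of 26, that of Kdm3a (chr6:71594551-71594579, minus strand) in exon 20 of 26, and that of Kdm4c (chr4:74271281-74271309, plus strand) in exon 3 of 22. The printed words of Setd6, Setd3 and Nsd1 were thus in the last exon, and that of Setd6 lay 110 bases before the end of the coding sequence. Taking the word nearest to the stop codon favours such places, so they describe the choice as well as the genes.

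Levels are given on 2 scales. The mean count is the authors' value, a mean over all libraries of reads divided by size factors, and it grows with the length of a transcript. The level per kb is that mean count divided by the merged length of all annotated exons, and genes are compared with each other on that scale. Expressed genes are the 13455 genes of known length that reached the minimum mean count of 10. Their median was a mean count of 376 and a level of 81.3 per kb.

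With the minimum of 10, most members were above the median of expressed genes per kb. The median level per kb of the erasers was above that of the writers. Of the 34 members, 23 were above the median level per kb of expressed genes: 11 of 19 writers and 12 of 15 erasers. With the longest coding transcript as length, 11 of 19 writers and 10 of 15 erasers were above it. These shares rest on the division by length. On the mean count alone 17 of 19 writers and 12 of 15 erasers were above the median, which turns their order. The shares also depend on the minimum. With a minimum of 100 instead of 10, 8 of 19 writers and 8 of 14 erasers were above the median level per kb. The median level was 101 per kb for writers (range 18.5 to 676) and 163 for erasers (14.7 to 772), a ratio of 1.61 in favour of the erasers. Both ranges overlapped almost fully. Genes are not replicates of each other, so this difference was not tested. At or above the 75th percentile of expressed genes were 14 members, 8 writers and 6 erasers, while Setd1b and Kdm6b were the lowest 2, at the 23.1st and 20.0th percentiles. Together the members, 34 of 17597 genes, took 0.502% of all gene counts, a share that is not corrected for length. The median merged exon length was 8170.5 bases for members and 4390 for expressed genes.

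**Figure D1:**
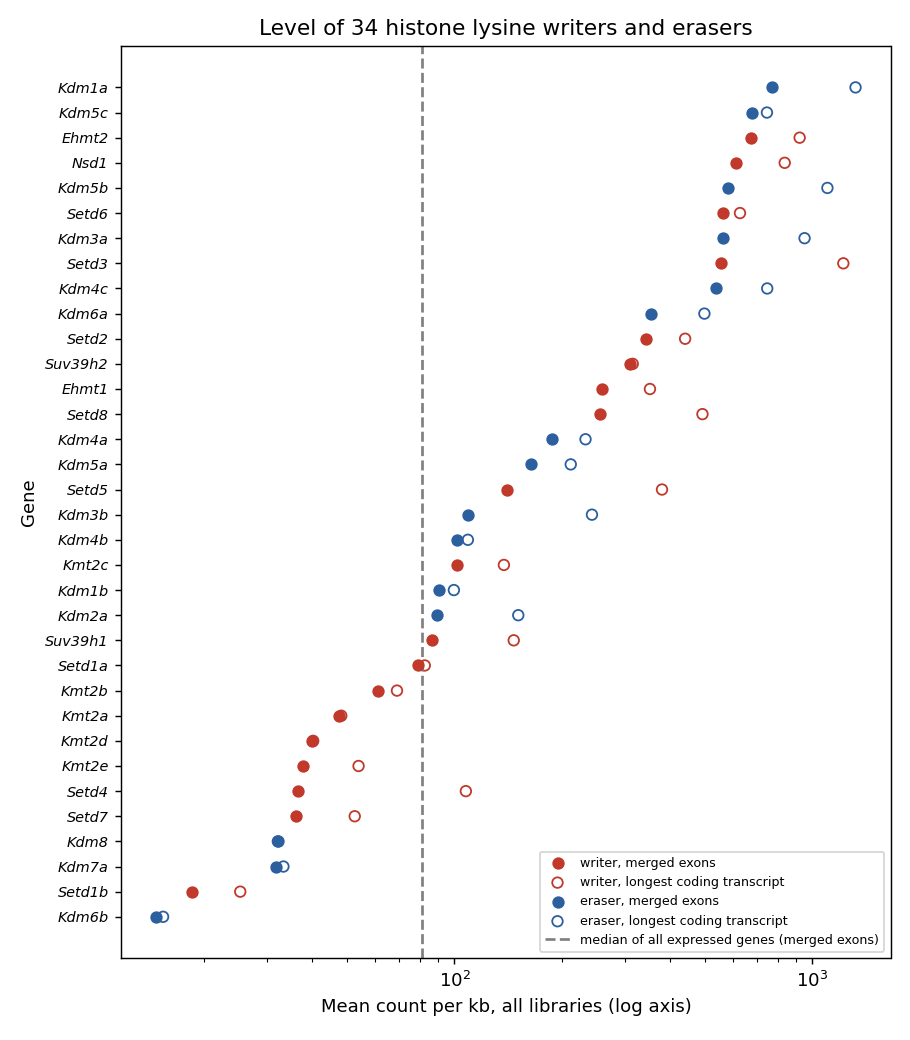
Each row is 1 of the 34 members, and the log axis gives the mean count per kb over all libraries, with filled points for merged exons, open points for the longest coding transcript, red for writers and blue for erasers. The dashed line is the median of expressed genes at 81.3 per kb on merged exons, with Kdm1a at the top (772) and Kdm6b at the bottom (14.7).

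**Figure D2:**
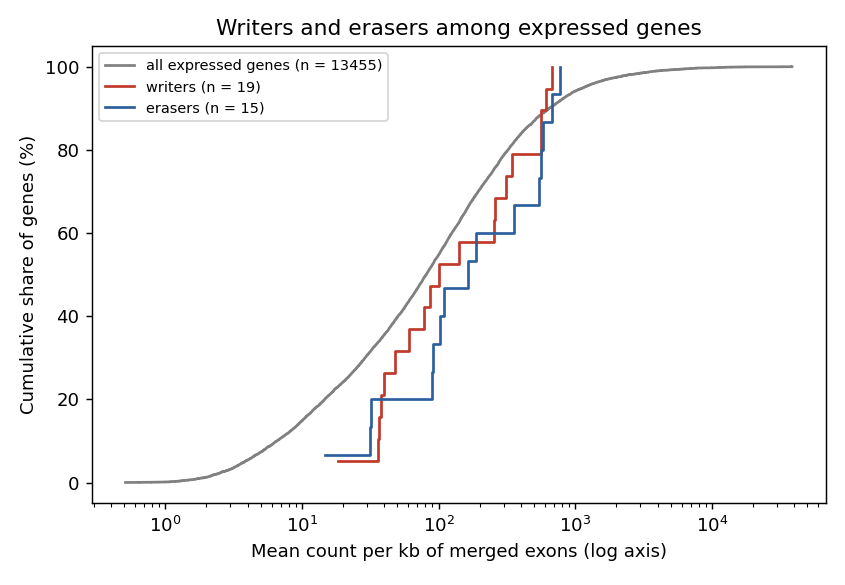
Cumulative share of genes (vertical axis, %) against the mean count per kb of merged exons (log axis) for 13455 expressed genes, 19 writers and 15 erasers. The lines of both classes lie to the right of all genes over the lower range, and neither class reaches the levels of the most abundant genes, with highest values of 676 and 772.

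At H3K4 the erasers mostly lay above the writers per kb, though Kdm1b was below Kmt2c. All 5 expressed H3K4 erasers were above the median level per kb, against 1 of 7 H3K4 writers, and the summed level of the erasers was 2283 per kb against 383, a ratio of 5.95. Kdm1a (LSD1), which removes the mono- and dimethyl marks and works with the CoREST and NuRD complexes, was the highest of all members. It lies on chromosome 4 (136550540 to 136602723, minus strand) and had a mean count of 3998, equal to 772 per kb, at the 91.8th percentile of expressed genes. Its paralog Kdm1b (LSD2), known for its role in setting maternal imprints in the oocyte, had a mean count of 497 and 90.4 per kb. Kdm1a was thus 8.54 times as high as Kdm1b per kb.

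The Kdm5 enzymes remove tri- and dimethylation of H3K4. Kdm5c, an X-linked gene that is known to escape X inactivation (chromosome X, 152233020 to 152274535, plus strand), had a mean count of 4815 and 677 per kb, at the 90.5th percentile. Kdm5b (chromosome 1, 134560171 to 134635285, plus strand) had a mean count of 9601, the second highest of the members, and 579.9 per kb. The order of Kdm5b and Kdm5c depended on the length used. Kdm5b was 0.856 times Kdm5c per kb of merged exons and 1.48 times per kb of the longest coding transcript. Kdm5a, first found as a partner of the RB protein, had 163 per kb from a mean count of 2312. The Y-linked paralog Kdm5d was not listed in the table, nor were the other 3 Y-linked genes looked up.

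H3K4 writers had low levels per kb. Kmt2c and Kmt2d (MLL3 and MLL4) place monomethylation at enhancers. Kmt2c (chromosome 5, 25271798 to 25498783, minus strand) had a mean count of 2057 and 101 per kb, the only H3K4 writer above the median, and Kmt2d (chromosome 15, 98831669 to 98871204, minus strand) had 799 and 40.1 per kb. Kmt2a and Kmt2b (MLL1 and MLL2), which act at promoters of developmental genes, had mean counts of 795 and 585 and levels of 47.7 and 61.0 per kb. Setd1a and Setd1b, the catalytic subunits behind most trimethylation at active promoters, had mean counts of 536 and 223. Per kb Setd1a reached 78.8, just under the median, and Setd1b (chromosome 5, 123142193 to 123168629, plus strand) 18.5, the lowest of all writers. Setd7, a monomethyltransferase that also acts on other proteins, had a mean count of 390 and 36.1 per kb.

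The contrast at H3K4 rests on the correction for length. On the mean count alone 6 of 7 H3K4 writers and 5 of 5 H3K4 erasers were above the median of expressed genes, while the summed mean count of the erasers was still 3.94 times that of the writers. With the longest coding transcript as length, 1 of 7 writers and 4 of 5 erasers were above it, Kdm1b being the eraser below. The table of counts does not tell which isoforms were present, and a summed RNA level is not a summed enzyme amount.

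**Figure D3:**
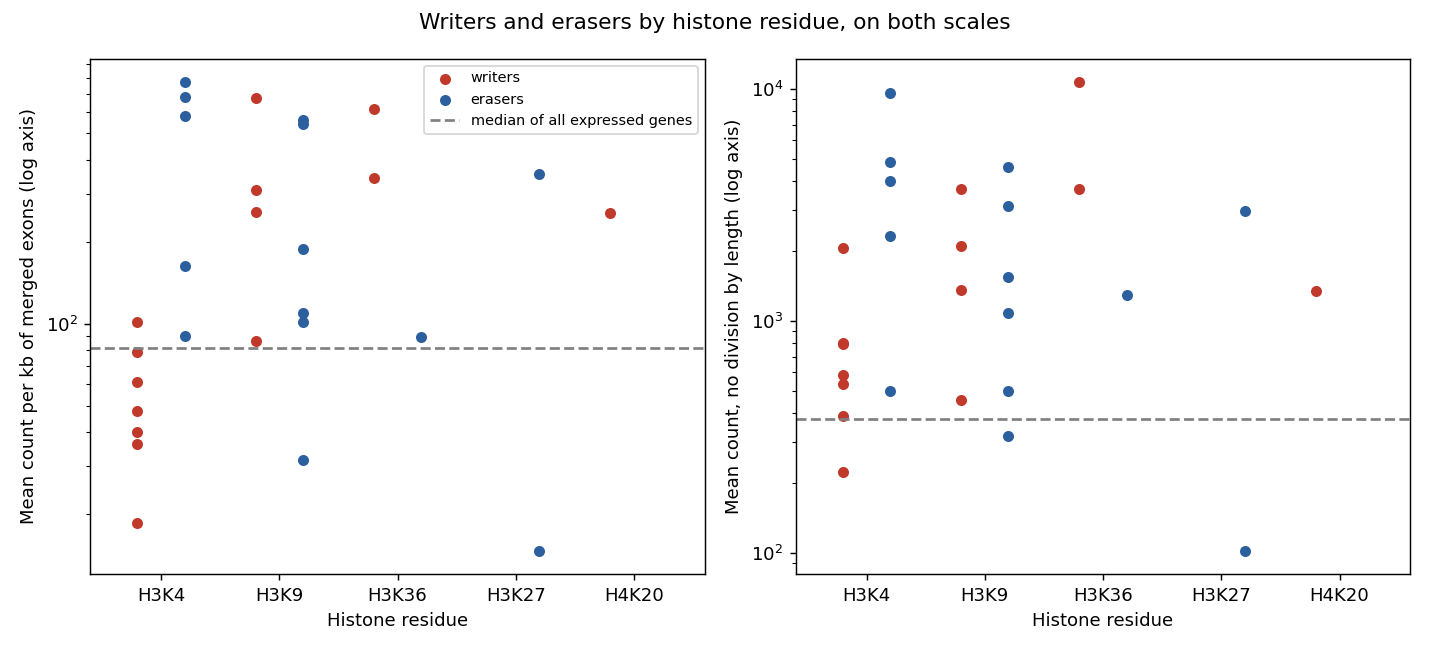
Writers (red) and erasers (blue) by the histone residue they act on, as the mean count per kb of merged exons on the left and the mean count on the right, both on log axes, with the dashed line at the median of expressed genes. Kdm4a, Kdm4b, Kdm4c and Kdm7a, which also act on other residues, are drawn at H3K9 only. Of the 7 H3K4 writers 1 is above the line on the left and 6 are on the right, while all 5 H3K4 erasers are above it in both panels.

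At H3K9 both classes lay mostly above the median of expressed genes, with Suv39h1, Kdm4b and Kdm3b only between the 51st and 57th percentiles. All 4 writers under the name rule and 5 of 6 erasers were above the median level per kb. With the longest coding transcript as length, 4 of 4 writers and 4 of 6 erasers were above it. The summed level was 1329 for the 4 writers and 1530 for the 6 erasers, a ratio of 1.15, and such sums grow with the number of genes. The median level had the other order, 283 per kb for writers and 148 for erasers. Setdb1, an H3K9 writer outside the name rule at 389 per kb, is not in these sums. Ehmt2 (G9a) and Ehmt1 (GLP) form a heterodimer that places mono- and dimethylation in euchromatin. Ehmt2 (chromosome 17, 34898469 to 34914052, plus strand) had a mean count of 3710 and 676 per kb, the highest of the writers, and Ehmt1 (chromosome 2, 24789928 to 24919614, minus strand) had 2094 and 258. Ehmt2 was 2.62 times its partner per kb on either length. Suv39h1 and Suv39h2 place trimethylation at pericentric repeats. Suv39h2 (chromosome 2, 3455815 to 3475031, minus strand) had a mean count of 1362 and 309 per kb, and the X-linked Suv39h1 had 456 and 86.6 per kb, just above the median. The ratio of both was 3.57 per kb of merged exons and 2.15 with the longest coding transcript.

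Of the H3K9 erasers, Kdm3a was the highest and Kdm7a the lowest. Kdm3a (chromosome 6, 71588972 to 71632990, minus strand), which removes mono- and dimethylation, had a mean count of 4616 and 561 per kb, and Kdm3b had 1541 and 109 per kb. Exons of Kdm3b overlap a gene on the opposite strand over 24.6% of their merged length, the largest such share of any member, so its count is uncertain. Kdm4a, Kdm4b and Kdm4c remove trimethylation from both H3K9 and H3K36. Kdm4c (chromosome 4, 74242497 to 74405860, plus strand) had a mean count of 3139 and 539 per kb, against 1083 and 187 for Kdm4a and 499 and 102 for Kdm4b. The order within the family, Kdm4c over Kdm4a over Kdm4b, was the same on the mean count and on both lengths. Kdm7a, which also acts on H3K27, had a mean count of 318 and 31.6 per kb. Kdm4d, a paralog best known from testis, had a mean count of 6.04, under the minimum of 10, and was the only matching gene left out for a low value. The members nearest above that minimum were Kdm8 at 76.7 and Kdm6b at 102.

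The H3K36 writers included the most abundant member by count. Nsd1, which places mono- and dimethylation (chromosome 13, 55209782 to 55318325, plus strand), had a mean count of 10701, at the 99.0th percentile of expressed genes, and 612 per kb. Setd2, the enzyme behind trimethylation of H3K36 (chromosome 9, 110532597 to 110618633, plus strand), had a mean count of 3683 and 342 per kb. The H3K36 eraser Kdm2a, which removes dimethylation, had a mean count of 1293 and 89.5 per kb. Both writers were above Kdm2a, with a summed level of 955 per kb for 2 genes against 89.5. Kdm4a, Kdm4b and Kdm4c, grouped under H3K9 here, also act on H3K36 and had a summed level of 828 per kb. No order of the classes is therefore given for this residue.

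The pair of H3K27 erasers lay far apart. Kdm6a (UTX), an X-linked subunit of the MLL3 and MLL4 complexes (chromosome X, 18162575 to 18279936, plus strand), had a mean count of 2963 and 353 per kb. Kdm6b (JMJD3), known for its induction during differentiation and inflammation (chromosome 11, 69398508 to 69413675, minus strand), had 102 and 14.7 per kb, the lowest of all members per kb. Kdm6a was 24.1 times as high as Kdm6b per kb of merged exons and 32.6 times with the longest coding transcript. The only H4K20 writer under the name rule was Setd8, now called Kmt5a, which places monomethylation and is tied to the cell cycle. It had a mean count of 1351 and 254.5 per kb, at the 75.3rd percentile.

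The other members have substrates that are not histones, are not only histones, or are uncertain. Setd3 methylates a histidine of actin, and it had a mean count of 3363 and 557 per kb. Setd6, known to act on the NF-kappaB subunit RelA, had a mean count of 1072 on short exons and therefore 563 per kb, at the 88.5th percentile. Setd5 and Kmt2e carry SET domains of unclear activity, and had mean counts of 2568 and 395 and levels of 139.9 and 37.8 per kb. Setd4 had 196 and 36.5 per kb, and Kdm8, a JmjC protein of disputed histone activity, 76.7 and 32.1. Without these 6 genes the writers' median fell to 94.0 per kb and the erasers' rose to 175.

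Levels also differed between paralogs. Of the pairs of writers set side by side, Kmt2a and Kmt2b were the closest, at a ratio of 0.782 per kb, and their order turned on the mean count, at 1.36. Setd1a over Setd1b was 4.26 per kb of merged exons and 3.28 with the longest coding transcript, where Kmt2c over Kmt2d was larger, at 3.41. On the mean count Suv39h2 over Suv39h1 had the largest ratio of these writers, 2.99. Among erasers the largest ratios after that of Kdm6a and Kdm6b were 8.54 for Kdm1a over Kdm1b, 5.29 for Kdm4c over Kdm4b and 5.13 for Kdm3a over Kdm3b. With the longest coding transcript the Kdm1 ratio was 13.3 and the Kdm3 ratio 3.93. Reads were kept only where they aligned to 1 place, so stretches shared by near-identical copies are undercounted, and to what degree was not tested.

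Writers and erasers outside the name rule were looked up from a list of 27 symbols, of which 25 were listed and all 25 had a mean count of at least 10. Their median level was 91.3 per kb, and 13 of 25 were above the median of expressed genes. Setdb1, the H3K9 enzyme of retrovirus silencing, was the highest of them per kb (mean count 2665, 389 per kb), followed by Smyd5 at 304 per kb and Jmjd6 at 296. Ezh2, the writer of H3K27 methylation in Polycomb complex PRC2, had a mean count of 1665 and 249 per kb, and its paralog Ezh1 464 and 62.4. Whsc1 and Whsc1l1, the older names of Nsd2 and Nsd3, had 99.5 and 28.5 per kb, both under Nsd1. The H4K20 writers Suv420h1 and Suv420h2 had 61.3 and 179.6 per kb. The lowest was Mecom at 2.47 per kb.

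Members had on the whole longer transcripts with more exons than other expressed genes, which the choice by name did not use. Their longest coding transcripts had a median length of 6406 bases and 22 exons, against 3166 bases and 9 exons for expressed genes. Suv39h1, Suv39h2, Setd6, Setd7, Setd8 and Kdm8 had only 6 to 8 exons. The median of the longest internal exon was 554.5 bases against 218, a ratio of 2.54. The longest of many exons tends to exceed the longest of few, and the number of exons was not adjusted for. The longest internal exon exceeded 400 bases in 23 of 34 members (67.6%) and in 21.6% of 12065 expressed genes with an internal exon. In the other 11 members it was shorter. Writers had the longer ones, with a median of 660 bases against 501 for erasers, and 8 of 19 writers but 2 of 15 erasers had one above 1000 bases. The longest were those of Setd2 (4286 bases), Kmt2a (4237), Kmt2d (2952) and Nsd1 (2560). Long internal exons are where m6A is known to be dense, and here the lengths are features of the annotation, not a measurement of m6A.

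**Figure D4:**
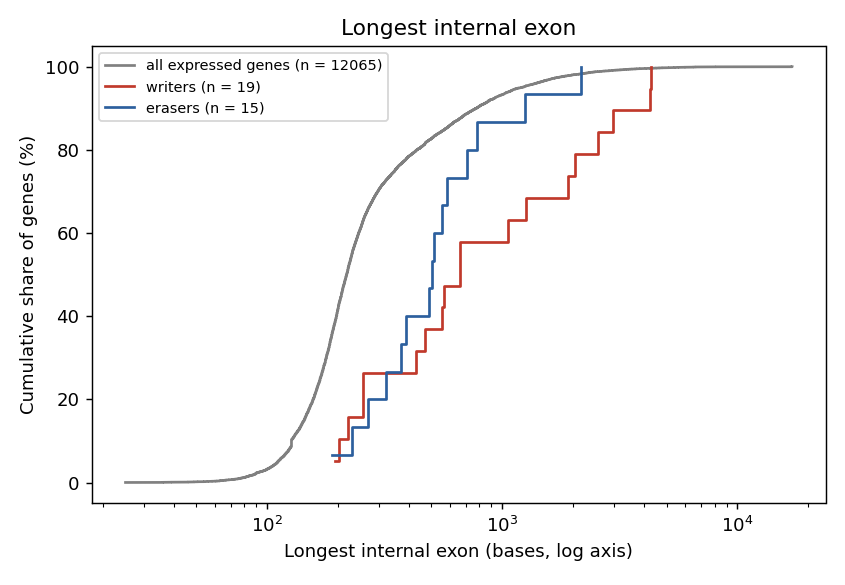
Cumulative share of genes (vertical axis, %) against the length of the longest internal exon in bases (log axis) for 12065 expressed genes, 19 writers and 15 erasers. Both classes lie to the right of all genes, with medians of 660 and 501 bases against 218.

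All 34 members held the word GGACT at least once in the sense strand of that transcript, as did 92.7% of 13029 expressed genes with a coding transcript, where longer transcripts hold it more often. Per kb the members differed little from the rest, with a median of 1.16 words against 1.05. The members held 280 words in all, 191 in coding sequence, 79 in 3′ UTRs and 10 in 5′ UTRs. Coding sequence thus held 68.2% of the words, against 53.8% over expressed genes, while the density in coding sequence was 1.19 per kb in both. Kmt2a had the most words, 19, followed by Kmt2b with 18, all 18 of them in coding sequence. Suv39h1 had the highest density, followed by Kmt2b at 2.13 words per kb and Kmt2e at 2.05. Kdm8 (0.419 per kb), Kdm4c (0.477) and Setd4 (0.548) had the lowest. The longest internal exons held 44 of the 280 words (15.7%), and they made up 14.4% of the transcripts' length.

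**Figure D5:**
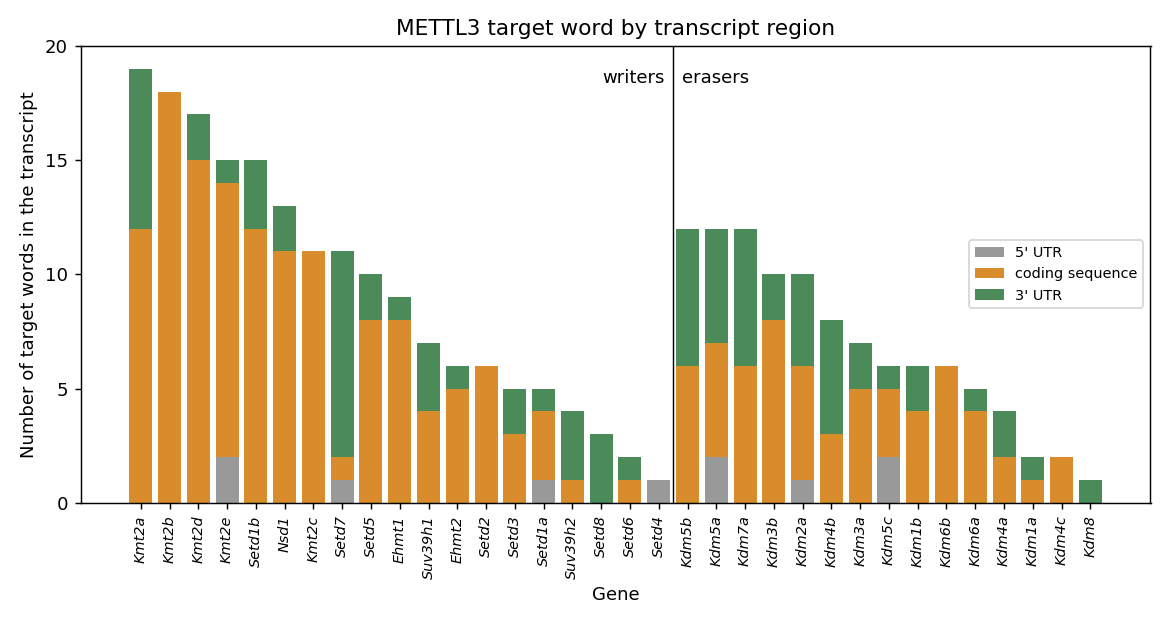
Number of GGACT words in the longest coding transcript of each member (vertical axis), stacked by 5′ UTR (grey), coding sequence (orange) and 3′ UTR (green), with 19 writers on the left and 15 erasers on the right. Kmt2a has the most with 19, and among erasers the highest number is 12.

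The labelled cell type was read against its markers. All 8 pluripotency genes looked up were among the well expressed genes, with mean counts from 1415 (Klf4) to 11934 (Pou5f1). Of 8 fibroblast markers, 4 had a mean count of at least 10, and the highest was Thy1 at 116. Col1a1, at 19.8, was low. The share of feeder reads in the members' counts was not tested, and in bulk RNA a smaller number of such cells and less RNA per cell cannot be told apart. Mettl3, the gene behind the degraded protein, had a mean count of 684 over all libraries, which checks no label because both groups are averaged. The mean counts of all genes added up to 14573411 per library after scaling. Exons of 13 members (38.2%) overlapped a gene on the other strand, against 30.9% of expressed genes, and for 2 members, Kdm3b and Suv39h1, the overlap was more than 10% of the merged exons.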

How the data were processed

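Total RNA of 8 libraries was sequenced by the authors. Extraction is described as total RNA in the study's methods and as chromatin RNA in the labels. By a procedure described as similar to that for chromatin RNA, the authors removed ribosomal reads with bowtie2, aligned with STAR to mm10 with strain variants masked, kept unique alignments, removed duplicates with Picard and counted reads per gene and repeat subfamily with TEtranscripts. The deposited signal used here is the authors' mean over all libraries of counts divided by size factors. The deposited fold changes, standard errors, statistics and p-values are the authors' own comparison of the groups and were neither used nor printed. Depth per library and spread between replicates are not analysed here.

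Symbols were matched to GENCODE vM21 (GRCm38, the build of mm10): 16660 directly and 707 through an older RefSeq symbol, 29 matched several records and 201 none, which left 17365 genes (98.7%) with a length. TEtranscripts was run with default parameters, which ignore strand, while the table's name carries the word reverse, so the use of strand is uncertain. Which annotation the authors counted on is not stated beyond its UCSC source, so lengths may differ from theirs. Every gene the name rule took was named, except 1 further match that is not reported here. Members and gene lists were chosen with earlier results of these data known. Because no value per sample was used, nothing was tested. Functions were tested on simulated data. Python 3.11.15, pandas 2.3.3 and numpy 2.4.6 were used. Protein stretches that had been planned were not analysed here.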

Additional observations from a re-analysis of the deposited data

How the results depend on the processing

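The counts of members above the median and the ratio of writers to erasers were recomputed under 7 alternatives: the longest coding transcript as length, no division by length, a minimum mean count of 1 or of 100, a protein-coding background, and leaving out members of uncertain activity or genes overlapping on the other strand. The writers' median stayed below the erasers' in all 7, with the log2 ratio between -0.90 and -0.52 (main value -0.69). The writers above the median moved beyond 1.5-fold under 1 alternative, to 17 of 19 with no division by length, where 12 of 15 erasers were above it, so that the writers had the larger share. With a minimum of 100 the counts were 8 of 19 writers and 8 of 14 erasers. The alternatives by histone residue were chosen after seeing the data. H3K4 writers above the median numbered 6 of 7 without length, 3 with a minimum of 1, 0 with a minimum of 100, and 0 of the 3 left without overlapping genes, Kmt2c not being among them. Without overlapping genes 3 of 3 H3K4 erasers and 2 of 2 H3K9 writers were left, all above the median. With a minimum of 100, 3 of 4 H3K9 writers and 3 of 6 H3K9 erasers were above it. The ratios of internal exon length (2.53 to 2.60) and of word density (1.09 to 1.13) stayed above 1 with the transcript of most exons and with a minimum of 100.

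No paired analysis was possible because the table used has no value per library, and for the same reason no replicate was left out. Setd4 was 36.5 per kb on merged exons and 108 on its longest coding transcript.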
